A study of Drosophila melanogaster with 12 samples.

Results

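A cluster of 3′-seq reads marks the 3′ end of a transcript, and the clusters described here are those that the deposited table assigned to 2 or more genes at once. They were chosen by that assignment alone: 1671 distinct positions named at least 2 genes, of 30701 positions outside the rDNA scaffold (5.44%, Wilson 95% interval 5.19 to 5.70%). Positions that named 1 gene numbered 29030 and served as the background. The shared positions fell into 501 sets of genes and named 981 of the 9557 genes in the table (10.3%, 9.67 to 10.9%). Every annotated gene that a shared position named lay on the strand of the position.

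Genes can share a 3′ end in several ways. A dicistronic transcript carries the coding sequences of neighbouring genes on 1 RNA and ends at a common cleavage site. A snoRNA is usually cut out of an intron of a host gene, often a ribosomal protein gene, so the last base of the snoRNA lies upstream of the poly(A) site of its host. Tandem genes that lie close together on a strand can have the 3′ end of the upstream gene inside the transcript of the downstream gene. Cleavage and polyadenylation are directed by a poly(A) signal, most often AAUAAA, shortly upstream of the cleaved base.

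The RNA came from powder of UV-cross-linked adult Drosophila heads, from flies grown at 25 °C on standard apple juice food. The 12 libraries, 3 in each of 4 groups, were input and anti-Flag immunopurified RNA from flies with a Flag-HA tag on the Pum protein made from its own gene (pum input, pum IP) and from untagged flies (w118 input, w118 IP). The 12 count columns of the table name no library, so every count below is a sum over all 12 columns. Such a sum mixes input with immunopurified RNA and tagged with untagged flies, has no replicate error, and allows no comparison between groups. Clusters naming the neuronal genes elav (8846 reads), nSyb (53650) and brp (22327), the rhodopsin gene ninaE (465493) and the glial gene repo (4682) were present. The germ-line genes bam and vas had no cluster, and the testis gene Mst87F had 548 reads.

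Many shared clusters were listed more than once, at overlapping positions. Of the 1671 positions, 686 (41.1%, 38.7 to 43.4%) overlapped another listed position on the same strand, against 0 of the 29030 single-gene positions. The overlapping positions formed 318 groups, and in all 318 the entries named the same genes in different orders. Within a group the lowest summed count was at the median 85.9% of the highest. At RpS7, which encodes a ribosomal protein of the small subunit, 5 overlapping entries carried 438415, 438657, 439052, 7998 and 422807 reads. These entries were not independent measurements. For sums of reads, each group of overlapping positions was therefore represented by its highest entry, here called reads counted once, which is a lower bound where overlapping entries cover different bases. This left 1303 positions and 9234962 of the 17480480 reads listed. Shared clusters then held 9.11% of all reads, against 16.0% when every listed position was added, and 7.45% when positions naming rRNA genes were also left out of both sides.

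The sequences below show kinds of shared end at chosen positions. Some of these positions had many reads, and others came from textbook loci or named many genes. The most-read shared positions, in rRNA genes, are not shown. They had 800313 reads with the hexamer CATAAA and 656542 reads with no hexamer. Each line gives 30 bases of the transcribed strand, 5′ to 3′, from the Release 6 reference genome (dm6), and capitals mark the hexamer searched. Where a hexamer was found, the window was placed to hold it. Windows therefore ended from 0 to 20 bases before the 3′-most base of the cluster. In the first set, a position at an annotated end of a ribosomal protein gene also named a snoRNA upstream of it or a snoRNA host RNA. It lay at no annotated end of that partner. AATAAA began from 22 (RpL23A) to 47 (RpS7) bases before the 3′-most base.
RpS7 with snoRNA:Psi18S-1377e and snoRNA:Psi28S-2149, chr3R:30206527-30206556 (minus strand): tgAATAAAcattaaacaatctaaaactaag
RpL15 with snoRNA:Me18S-C419, chr3L:27268423-27268452 (plus strand): taAATAAAgcacttcgtgcacgcaaagaac
RpL27A with snoRNA:Me18S-C1831, chr2L:4457195-4457224 (minus strand): ttAATAAAtttaaaagaaaaacaagtattt
RpL36A with snoRNA:Psi28S-2648, chr2L:8041867-8041896 (minus strand): AATAAActtgtagacgtaagctttaaaaaa
RpL14 with snoRNA:U49:66Db, chr3L:8602358-8602387 (plus strand): aaAATAAAagaaagtgttatttttaggaaa
RpL23A with Uhg7, chr3L:1667189-1667218 (minus strand): tgggtttAATAAAaccactcaaaaactaag

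In the second set, the annotated ends of the genes coincided. The stoned genes stnA and stnB, which act in synaptic vesicle recycling, and Mocs2A and Mocs2B, which encode the subunits of molybdopterin synthase, are textbook dicistronic loci. The others had the most reads among positions at an annotated end of 2 genes. A lesser one of these, at an end of RpL22 and of lncRNA:CR42491 (34224 reads), is not shown. It held no hexamer and was followed by 9 A in 10 bases.
stnB with stnA, chrX:22980728-22980757 (minus strand): aaAATAAAaattaaaacaacaaatattaag
CG10570 with CG42502, chr2L:18810029-18810058 (minus strand): ATTAAAtcagaagaagatgcgccaaaaaaa
Prx5 with CG7215, chr3R:18165438-18165467 (minus strand): acAATATAtatgcgattagagatgttatgt
crc with CG46314, chr2L:21319502-21319531 (plus strand): gtAATAAAtcaaagggtttttaaaagaaat
Mocs2B with Mocs2A, chr3R:25125632-25125661 (minus strand): attaagctAATAAAaacctaattaattatt

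The third set shows positions that lay at an end of 1 gene or of none. The first position at Adh, the alcohol dehydrogenase gene, had no hexamer in the 50 bases before it and was followed by 10 A in the next 10 bases. The second, at the annotated end of Adh, held AATATA. At mod(mdg4), a chromatin gene whose transcripts are completed by trans-splicing to many small genes, 1 position named 7 of them and held AATAAA.
Adh 3′ UTR with Adhr 5′ UTR, chr2L:14617233-14617262 (plus strand): tccggcatctaagaagtgatactcccaaaa
Adh end with Adhr 5′ UTR, chr2L:14617398-14617427 (plus strand): aaAATATAtgaaaattgagaaatccaaaaa
7 pre-mod(mdg4) genes, 5′ UTR of each, chr3R:21365875-21365904 (plus strand): caatgttAATAAAgtacagaaactagagtg

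The arrangement of the genes was varied, and overlap of the annotated genes was not a general property. Among 445 sets of 2 annotated genes, 159 (35.7%) had a transcript end in common within 50 bases. A further 90 (20.2%) had 1 gene inside the other, and 73 (16.4%) overlapped in part, by 78 bases at the median. The remaining 123 (27.6%) did not overlap at all. They were separated by a median of 181 bases and at most 425, within the 500 bases downstream of a gene in which the authors kept signal. Of the 1625 positions with annotated genes only, 817 (50.3%, 47.8 to 52.7%) lay inside the span of every gene named, 559 (34.4%) inside the span of exactly 1, and 234 (14.4%) inside none.

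Most sets were small. Pairs made up 449 of the 501 sets, 36 sets had 3 genes, 11 had 4, 3 had 5, 1 had 7 and 1 had 9. The median set had 2 positions, 196 sets had 1, and the largest had 37. Reads were concentrated in few sets: the 10 sets with the most held 58.9% of reads counted once, and 50 sets held 89.5%. After overlapping positions were counted once, the median shared position had 280 reads, close to the 270.5 of single-gene positions. Before that step it had 390. Shared and single-gene positions were also alike in width, with 57.5% (55.1 to 59.9%) and 58.7% (58.2 to 59.3%) spanning 1 base.

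**Figure D1:**
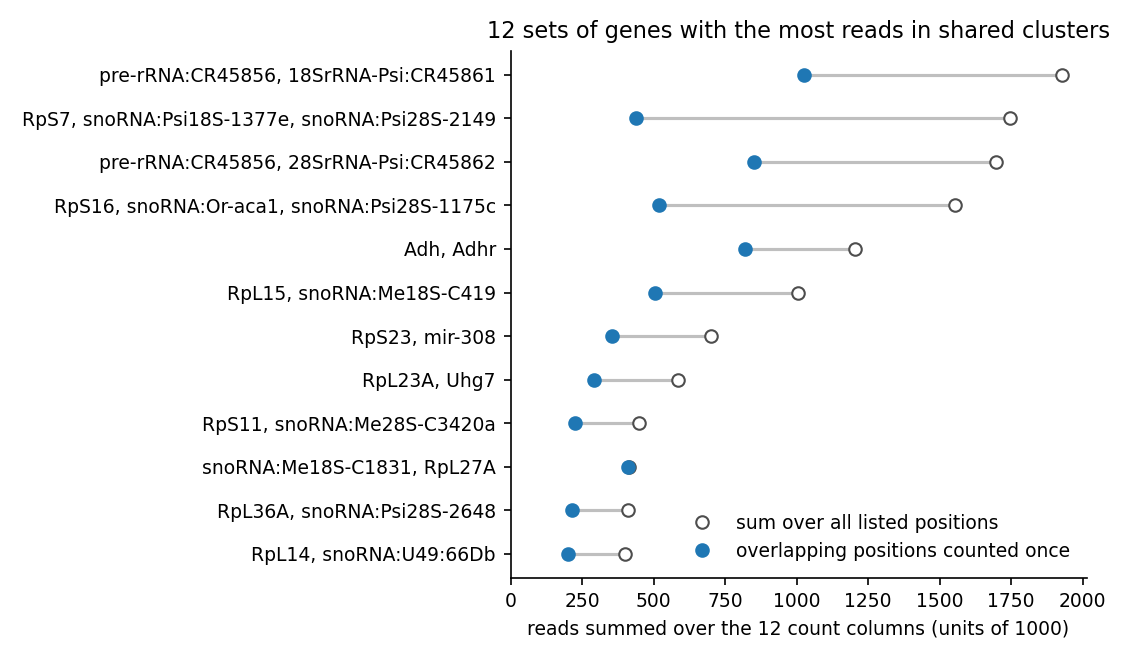
Reads summed over the 12 count columns (horizontal axis, in units of 1000 reads) for the 12 sets of genes with the highest sums; open circles add every listed position and filled circles count overlapping positions once. RpS7 with its snoRNAs moved from 1746929 to 439052 reads, whereas RpL27A with snoRNA:Me18S-C1831 changed little, from 415489 to 411724.

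Coding genes joined with snoRNAs held more shared reads than any other class of set. The 42 sets that joined a coding gene with a snoRNA held 142 positions (8.50%) but 37.4% of reads counted once. Of the 87 cytoplasmic ribosomal protein genes named in the table, 26 were named in a shared cluster (29.9%, 21.3 to 40.2%), beside 8.67% of all coding genes (781 of 9008; 8.11 to 9.27%). Only 2 of 72 mitochondrial ribosomal protein genes were (2.78%, 0.765 to 9.57%): mRpS14, which overlapped CG32533 by 30 bases, and mRpL53, paired with CG33155. Of 110 snoRNAs, 86 were named in a shared cluster (78.2%, 69.6 to 84.9%), and 77 of those had no other cluster.

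The 26 ribosomal protein genes split into separate classes. In 19, at least 90% of the reads of the gene lay in shared clusters, in 7 under 10% did, and none lay between. In all, 13 had no cluster of their own. A snoRNA was among the partners of 21. RpS16 had 519987 reads counted once, RpL15 503958, RpS7 439562, RpL27A 411724, RpL14 200904 and RpS20 204830, and none of these genes had a read outside shared clusters. RpL22 shared 200792 reads with lncRNA:CR42491 and snoRNA:Psi18S-531, and RpS23 shared 353745 with mir-308 and had 208 of its own. RpL23A shared 292912 reads with Uhg7, a snoRNA host RNA, and had 178 of its own. The 7 genes of the other class had 79573 (RpS29) to 350711 (RpL5) reads of their own. Their shared reads ran from 120 at RpL3 to 2256 at RpL5, and none of their shared positions lay at an annotated end of the gene except at RpL13A, where 275 reads did.

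Position with respect to each partner differed. In the sets of a coding gene and a snoRNA, the coding gene was at an annotated end in 95 of 142 positions, and those held 98.7% of its reads counted once. For the snoRNA, 165 of 171 pairings of a position with a snoRNA lay downstream of it, at a median of 355 bases past its last base and between 66 and 499. Only 5 lay at the end of the snoRNA itself. At the main position of RpS7, the 3′-most base of the cluster was 23 bases past an annotated end of RpS7. It was 469 bases past the last base of snoRNA:Psi18S-1377e. An overlapping entry with 422807 reads had its 3′-most base 7 bases past that end of RpS7. For the main RpL15 cluster, the 3′-most base lay 22 bases past the annotated end and 444 past snoRNA:Me18S-C419. For RpL36A it lay 6 bases past the end of the gene and 322 past snoRNA:Psi28S-2648. A lesser RpL36A position with 18858 reads lay 67 bases upstream of the end, in the 3′ UTR. Each of these positions met the 500-base limit for the snoRNA. What part of the reads, if any, came from snoRNA precursors was not tested.

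**Figure D2:**
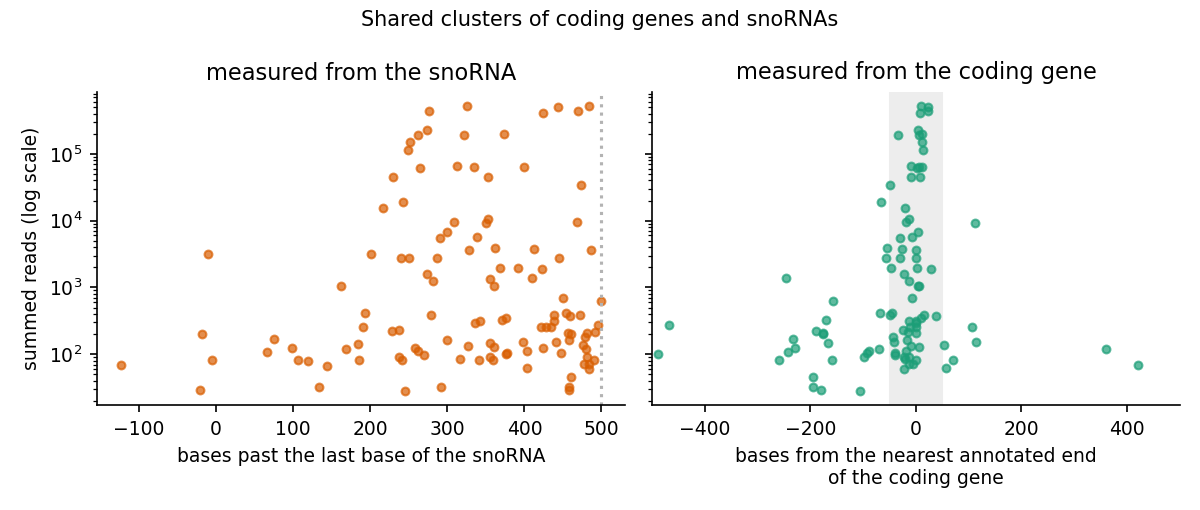
Shared clusters of a coding gene and a snoRNA, overlapping positions counted once, with summed reads on a log axis. The left panel gives bases past the last base of the snoRNA (dotted line, 500 bases) and the right panel bases from the nearest annotated end of the coding gene, restricted to 500 bases on either side (grey band, 50 bases); the positions with the most reads lie in the band on the right but spread between 200 and 500 bases on the left.

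Across all shared positions, 364 (21.8%, 19.9 to 23.8%) were at an annotated end of 2 or more of the genes named, meaning at most 50 bases away. Another 494 (29.6%, 27.4 to 31.8%) lay at an end of exactly 1, and 813 (48.7%, 46.3 to 51.1%) at an end of none. Single-gene positions lay at an end of their gene in 54.5% of cases (54.0 to 55.1%). By reads counted once, the order was different: 59.6% of shared reads lay at an end of exactly 1 gene, 30.2% at no end and 10.2% at an end of 2 or more. The rRNA genes bore on this, since without them 72.4%, 14.7% and 12.8% of the reads lay in the 3 classes. Median counts per listed position were 788 at an end of 2 or more genes, 601.5 at an end of 1 and 225 at none. With overlapping positions joined they were 650, 469 and 186.

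**Figure D3:**
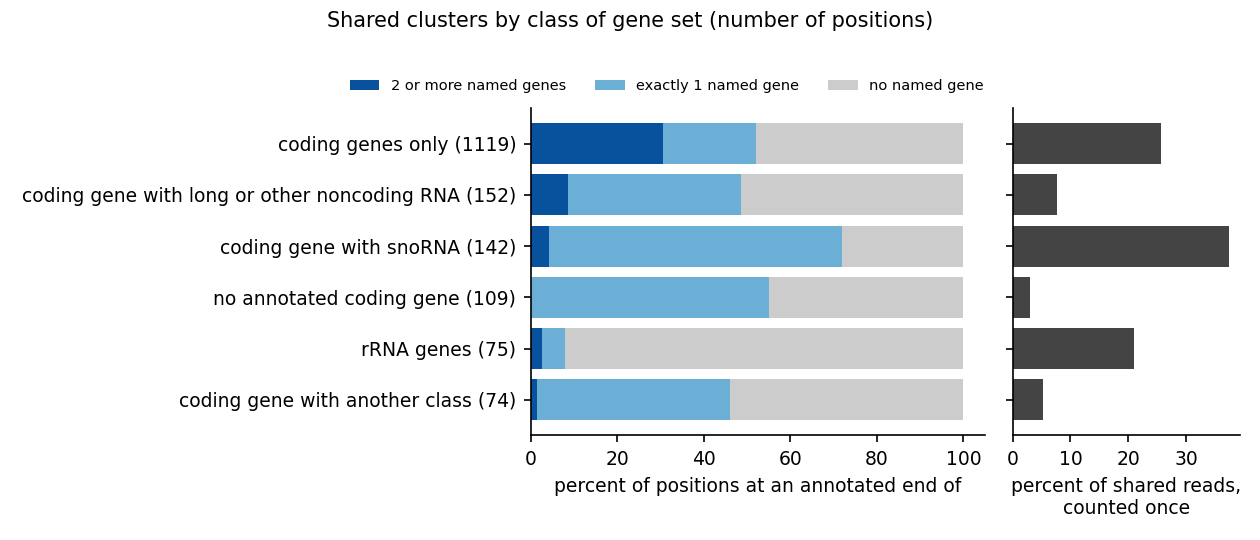
Left, percent of shared positions at an annotated end of 2 or more, exactly 1 or none of the genes named, by class of gene set (number of positions in parentheses); right, percent of shared reads counted once. Sets of coding genes only held 1119 positions and 25.7% of the reads, against 142 positions and 37.4% for coding genes with a snoRNA, and 92.0% of rRNA positions lay at no annotated end.

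Coding genes paired with coding genes formed 318 sets, of which 149 (46.9%) had an end in common, 85 (26.7%) did not overlap, 59 (18.6%) overlapped in part and 25 (7.86%) had 1 gene inside the other. The pairs with a common end held 84.2% of the reads of such sets counted once. In them, 305 of 742 positions (41.1%) lay at an end of both genes and 358 (48.2%) at none. In partly overlapping pairs, 106 of 127 positions (83.5%) lay at an end of 1 gene, and in pairs that did not overlap 97 of 112 (86.6%) lay at no end.

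Several pairs with a common end placed nearly all of their reads there. CG10570 and CG42502 had 171238 reads at 1 position of chromosome 2L (base 18810029), out of 179941 counted once. That position lay 7 bases past an annotated end of both genes, and 1335 bases upstream of the last annotated base of both. Prx5, which encodes a peroxiredoxin, and CG7215 had 60419 of 61078 reads at 1 position, 12 bases past their end. For crc, the fly ATF4 gene, and CG46314, 46328 of 47293 reads were at 1 position 10 bases past the common end. ND-MNLL, a subunit of mitochondrial complex I, and CG45089 had all 33640 reads at an end of both. The phototransduction gene inaF-B and its neighbour inaF-D had 24247 of 28036 reads at an end of both. In each of these pairs, the reads at that end belonged to either gene as far as the table shows.

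Other pairs differed. Tsp42Ej and Tsp42Ek, tandem tetraspanin genes that overlap by 107 bases, had all 55301 reads at an end of 1 gene, and so did Gpo2 and Cyt-b5, with 45516 reads and an overlap of 18 bases. ND-15 and CG3436 overlapped by 2 bases, and all 45866 reads lay at an end of 1. Cam, the calmodulin gene, had 106321 reads at a position 13743 bases upstream of its nearest annotated end, in a 5′ UTR of Cam and a noncoding exon of lncRNA:CR43900. That position was at no annotated end, was followed by 8 A in 10 bases, and held 1 of the hexamers.

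The textbook loci were not alike. All 11 positions of stnA and stnB were shared, with 18905 reads counted once, of which 16117 lay at 1 position 8 bases past the common end. Positions in the 3′ UTR upstream of that end held 776 reads at most, and 3 positions from 12777 to 15024 bases upstream held 26 to 610. At Adh and Adhr all 14 positions were shared, with 818771 reads counted once. The end of Adh had 427758 of them, the position 140 bases upstream of it 382460, and the common end 2780. The position with 382460 reads was the one followed by 10 A; without it, the locus had 436311 reads, and whether internal priming on that stretch contributed was not tested. Adhr is downstream of Adh on the same dicistronic transcript, and in the annotation the Adh end lay in the 5′ UTR of Adhr.

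Ada2a and Polr2D, which encode a histone acetyltransferase cofactor and a subunit of RNA polymerase II from 1 locus, had 8 shared positions and no others. Of 2795 reads counted once, 2622 lay at an end of Ada2a within the 3′ UTR of Polr2D, and 173 at an end of both. Mocs2A and Mocs2B had 1 position with 131 reads, at base 0 of their common end. ChAT and VAChT, the genes of the cholinergic locus, shared 1 position with 145 reads in the 5′ UTR of each, whereas 10008 and 22065 reads lay in clusters of their own. Clusters of eIF2gamma named it alone (1 position, 1227 reads), and none named Su(var)3-9, vas or solo. Those loci therefore had no shared cluster to describe.

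**Figure D4:**
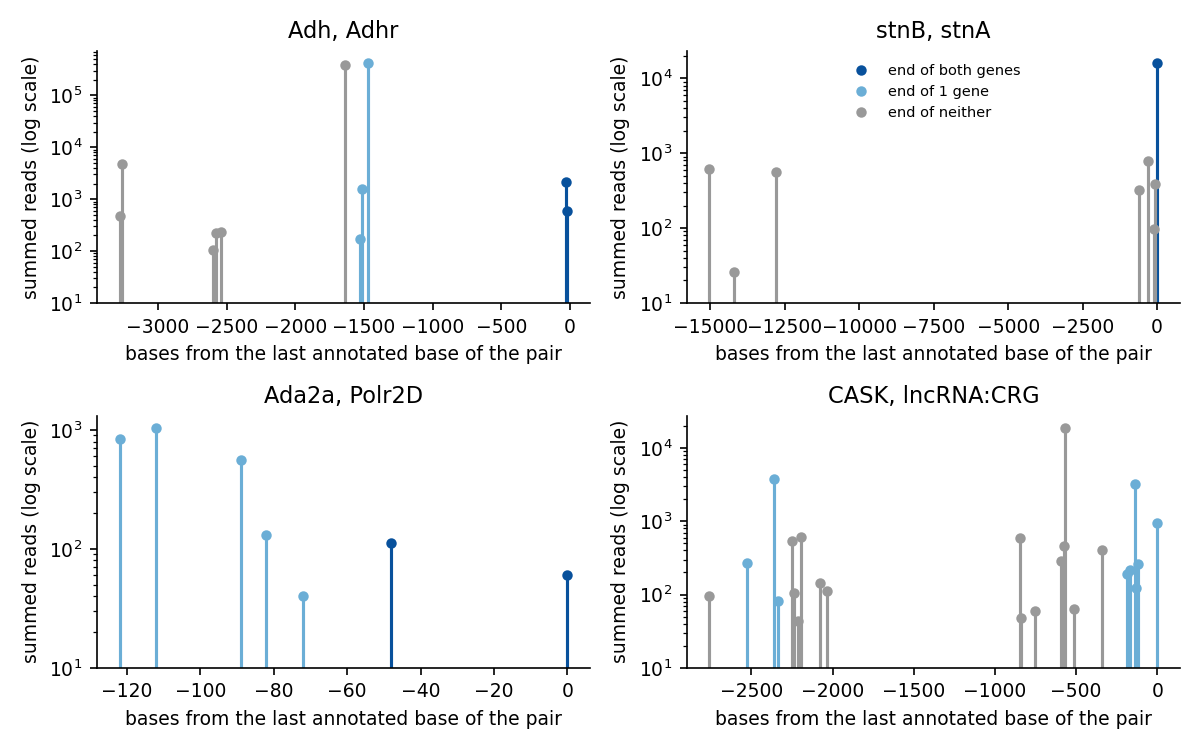
Summed reads (log axis) of shared positions, overlapping positions counted once, against the distance in bases from the last annotated base of the pair, for Adh with Adhr, stnB with stnA, Ada2a with Polr2D and CASK with lncRNA:CRG. Most reads of stnB and stnA are at the common end (16117), those of Adh and Adhr at and just upstream of the Adh end, and the most-read position of CASK and lncRNA:CRG (18939) is 566 bases upstream of the last annotated base of CASK.

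The mod(mdg4) locus of chromosome 3R had the positions that named the most genes, on either strand. On the minus strand, 9 genes (mod(mdg4) and 8 pre-mod(mdg4) genes) shared 8 positions with 2644 reads counted once, all at an annotated end of exactly 1 of them. The position with 928 reads lay 1 base upstream of an end of mod(mdg4). On the plus strand, 7 pre-mod(mdg4) genes shared 10 positions, 3 after overlapping ones were joined. They carried 4047 reads counted once, 3197 of them at 1 position in the 5′ UTR of every gene and 2074 bases upstream of the nearest end of pre-mod(mdg4)-Y. A further 782 lay at an end of 2 or more of the genes. Sets of 5 of these genes had 320, 149 and 49 reads. All 22 positions of these 5 sets held at least 1 of the hexamers.

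Most positions of the sets with the largest numbers of positions were away from annotated ends. The 8 sets with the most positions held 241 of the 1671, and 201 of these (83.4%) lay at no annotated end. Apart from a pair of rRNA sets they were FBgn0050497 with FBgn0266526 (36 positions, neither in the annotation used), CG42613 with CG43732 (32), sif with CG46320 (31), CASK with lncRNA:CRG (29), Pif1B with Pif1A (24) and CG15465 with rg (24). Of the 176 positions of these 6 sets, 72 (40.9%) had directly downstream an A stretch of the kind the authors screened for. The rRNA sets had none, so the share over all 8 sets was 72 of 241 (29.9%). It was 16.1% of all shared positions, 16.9% of shared positions without rRNA genes, and 15.9% of all single-gene positions. Whether priming on those stretches contributed was not tested.

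CASK encodes a scaffold protein of the synaptic membrane, and lncRNA:CRG lies within its 3′ region. Of 31616 reads counted once, 18939 lay 566 bases upstream of the last end of CASK, at an end of neither gene and followed by 9 A in 10 bases. The proximal end of CASK had 3801, the end of lncRNA:CRG 3232 and the distal end of CASK 955. The sif gene, which encodes a guanine nucleotide exchange factor of synapses, and CG46320 had 20677 reads, of which 20327 lay at no annotated end. Pif1B and Pif1A had 21152 reads, 15199 of them at their common end. For CG15465 and rg, a neuronal kinase-anchoring protein gene, 4251 of 11461 reads lay at an end of rg and 1343 at an end of both.

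The rRNA genes formed 5 sets with 75 positions and 1939831 reads counted once (21.0% of shared reads). All lay on chromosome X, and 3 of the sets named pre-rRNA:CR45856. Of 75 positions, 69 lay at no annotated end and 42.7% held a hexamer, against 67.8% of all shared positions. rRNA genes exist in many near-identical copies, so the copy that gave a read is uncertain. Positions on the rDNA scaffold were not members.

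Poly(A) signals were less frequent in shared than in single-gene clusters, by an amount that depended on how positions were counted. At least 1 of the 12 hexamers (AATAAA or ATTAAA or AATATA or AATACA or AATAGA or AATGAA or AAGAAA or ACTAAA or AGTAAA or CATAAA or GATAAA or TATAAA) occurred in the 50 bases before 1133 of 1671 shared positions (67.8%, 65.5 to 70.0%) and before 72.8% of single-gene positions (72.2 to 73.3%). Only the transcribed strand was searched, and a position with several overlapping hexamers counted once. The difference was -4.95 percentage points (Newcombe 95% interval -7.28 to -2.69). With overlapping positions joined it was -7.60 points (-10.3 to -5.01). With only the most-read position kept for each set of genes and for each gene of single-gene clusters, it was -20.0 points (-24.2 to -16.1). The shared positions kept in this way held a hexamer in 69.9% of cases, near the 67.8% of all. The wider gap thus lay mainly in which single-gene positions were kept, a choice made by reads. Clusters of 1 gene are not independent, so these intervals cover sampling of positions only. Without positions naming rRNA genes, 69.0% (66.7 to 71.2%) of 1596 shared positions held a hexamer. AATAAA itself preceded 36.0% of shared and 39.7% of single-gene positions, and ATTAAA 13.2% and 12.9%.

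The share depended on the annotated ends. It was 88.7% (85.1 to 91.6%) at an end of 2 or more genes, close to the 87.6% (87.1 to 88.1%) of single-gene clusters at an end. It was 79.4% (75.6 to 82.7%) at an end of exactly 1 gene, 9.38 points lower than at an end of 2 or more (4.43 to 14.1). For all shared positions at an end, the difference from single-gene clusters at an end was -4.31 points (-7.00 to -1.91). At no end the share was 51.4% (48.0 to 54.8%), and the difference from single-gene clusters at no end (54.9%) was -3.48 points, with an interval of -7.02 to 0.04 that spans 0. The number of A in the next 10 bases was 4.73 on average in shared and 4.71 in single-gene clusters.

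**Figure D5:**
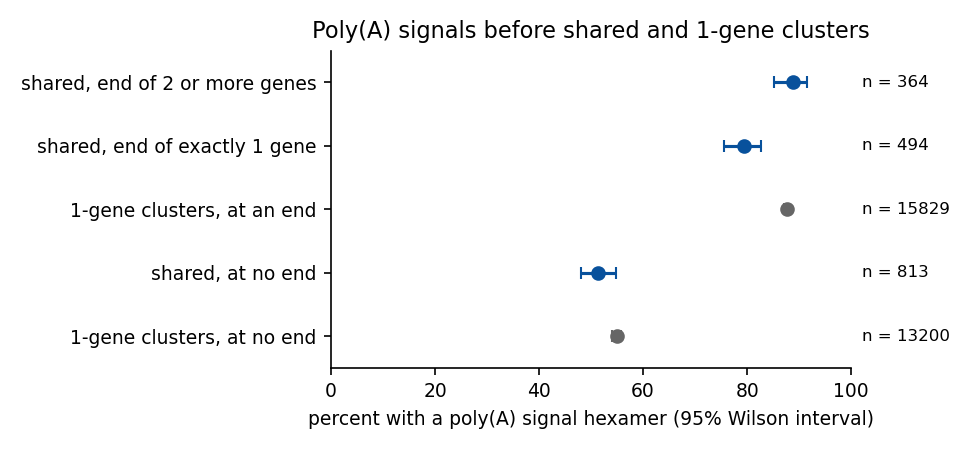
Percent of positions with 1 of 12 poly(A) signal hexamers in the 50 bases before the 3′-most base, with 95% Wilson intervals and the number of positions, for shared clusters (blue) and clusters naming 1 gene (grey). Shared clusters at an end of 2 or more genes (88.7%) lie near single-gene clusters at an end (87.6%). Those at an end of exactly 1 gene are lower (79.4%), and those at no end are lowest (51.4%).

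For most genes the shared clusters were the only ones. Of the 981 genes, 608 (62.0%, 58.9 to 65.0%) were named in no other cluster, including 437 of 781 coding genes (56.0%) and 77 of 86 snoRNAs (89.5%). By reads counted once, 665 genes had at least 90% of their reads in shared clusters and 144 had under 10%. In 178 of the 449 pairs neither gene had a cluster of its own, in 165 1 gene did, and in 106 both did. Among genes with no other cluster, the coding genes with the most reads counted once were Adh and Adhr (818771 at their shared positions), RpS16 (519987) and RpL15 (503958).

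Sets of more than 2 coding genes held far fewer reads than the leading pairs. The tarsal-less genes tal-1A, tal-2A, tal-3A and tal-AA, which encode short peptides on 1 polycistronic RNA, had 7 positions and 3160 reads counted once, of which 3100 lay at an end of 2 or more of them. PIG-M, which encodes a mannosyltransferase of GPI anchor synthesis, shared all 4891 reads at such ends with CG42379, CG42380 and CG42381. Mettl5, an rRNA methyltransferase gene, did likewise with CG42374 and CG45081, with 3620 reads. At Hr3, a nuclear receptor gene of the ecdysone response, 513 of 1760 reads shared with CG12912 and CG46321 lay at an end of 2 or more genes and 1247 at none.

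A coding gene joined with a miRNA formed 16 sets with 49 positions. A miRNA is cut from a hairpin, often one in an intron of a host transcript. None of the 49 positions lay at an end of both genes, 21 lay at an end of exactly 1 and 28 at none. Of 431717 reads counted once, 353745 were those of RpS23 with mir-308, 347721 of them at an end of exactly 1 gene. ND-23, which encodes a subunit of mitochondrial complex I, had 20758 of the 24023 reads it shared with mir-4911 at an end of 1, and E2f1, a cell cycle transcription factor gene, had 2392 of 2643 shared with mir-998. By contrast, all 29505 reads that cpx, the gene of the synaptic protein complexin, shared with mir-929 lay at no annotated end. The same held for the 704 reads of tau, which encodes a microtubule-binding protein, with mir-1001. Over all sets with a miRNA, 52 of 53 pairings of a position with a miRNA lay downstream of it, between 69 and 500 bases past its last base and 306 at the median.

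Small RNA genes with transcripts of their own were also named beside a neighbour. The U3 snoRNA genes snoRNA:U3:54Aa and snoRNA:U3:54Ab, whose product acts in pre-rRNA processing, were joined with tRNA:Leu-AAG-1-2 and tRNA:Leu-AAG-1-3, which lay 234 and 235 bases from them. These sets had 18203 and 19492 reads counted once, all but 70 of them at an end of 1 gene. The U2 snRNA gene snRNA:U2:34ABa shared 26976 reads with kek4, from which it was separated by 218 bases, and 26850 of them lay at an end of 1. U3 and the spliceosomal RNAs have near-identical gene copies, so the copy that gave a read is uncertain.

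In other gene families the share is to be read beside the 8.67% of all coding genes and the 10.3% of all genes named in the table. Of 66 nuclear genes of oxidative phosphorylation, 8 were named in a shared cluster (12.1%, 6.27 to 22.1%). ND-MNLL, ND-23 and ND-15 had 100%, 98.8% and 90.2% of their reads there, and the other 5 had 0.0703% (ATPsynC) to 20.4% (UQCR-Q). Of 41 chemoreceptor and odorant-binding genes, 8 were (19.5%, 10.2 to 34.0%). Gr64b with Gr64c had 64 reads at an end of both genes and Gr64d with Gr64e had 157, and these sugar receptor genes had no cluster of their own. Of 142 long noncoding RNAs 32 (22.5%) and of 72 antisense RNAs 15 (20.8%) were named in a shared cluster.

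Some genes of the study's own lists were named in shared clusters, and how those lists treated clusters of several genes was not examined. Of the study's Pum targets, 456 were named in the table, and 18 of these in a shared cluster (3.95%, 2.51 to 6.15%). The share was 8.67% of all coding genes and 10.3% of all genes named. The 18 included the rRNA genes 28SrRNA-Psi:CR45859 and 28SrRNA-Psi:CR45855. None of the 18 was named only in shared clusters, and the median target among them had 5.29% of its reads shared. CG11755 had 80.3% of its reads shared with CG8043, and 2mit 66.9% with lncRNA:CR45109. For eIF4EHP, a cap-binding translational repressor, 37.1% lay in clusters shared with Syx1A, the synaptic syntaxin gene: 10951 reads at an end of Syx1A, in a 3′ UTR of eIF4EHP 34232 bases upstream of the nearest end of eIF4EHP at the main position. That position was followed by 10 A in 10 bases. Of the genes the study lists for neuronal 3′ UTR extensions, 265 were named in the table, and 16 of these were named in a shared cluster (6.04%, 3.75 to 9.58%). That interval holds the 8.67% of all coding genes. Trl, which encodes the GAGA factor, had 96.5% of its reads shared with CG42507, and 11636 of those 12877 reads lay at 1 position, 3 bases past the common end. Imp, an mRNA-binding protein gene, had 72.6% shared, sgg, the fly GSK-3 gene, 29.7%, and Galphaq, the G protein of phototransduction, 2.25%.

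By chromosome, shared positions made up 5.24% of positions on 2L, 5.88% on 2R, 4.84% on 3L, 5.75% on 3R and 6.03% on X. On chromosome 4, 2 of 658 positions were shared (0.304%, 0.0834 to 1.10%), both at RpS3A and snoRNA:CD-24, and none of 3 on Y.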

How the data were processed

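Per the labels, 12 QuantSeq REV libraries of adult head RNA were sequenced, 3 each of pum input, pum IP, w118 input and w118 IP. The authors trimmed reads with fastp, mapped them with STAR 2.6.1b to dm6, annotated by Ensembl release 93. Per their methods, bases followed by 6 A, or by 7 A in 10, were removed unless within 25 bases of an annotated end. Reads that ended at most 500 bases past a gene were kept. Among the clusters described here, 111 shared and 1584 single-gene positions at no annotated end were still followed by such a stretch. Why they remained was not tested. Peaks of at least 6 reads were extended by up to 15 bases, merged and recounted. The deposited table gives a count of reads per cluster in 12 columns that name no library, so only their sum was used and 0 columns were used singly. Depth per library is therefore not given here.

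Each chromosome, start, end and strand was used once (32302 entries; 667 repeats of shared positions, none with a differing count). Each cluster was placed by its 3′-most base, using Ensembl release 115, in which 975 of 981 genes named in shared clusters were found, and the Release 6 genome. No position lay past a chromosome end; 1 on a scaffold was not checked. A base within 50 bases of a transcript end was at that end; otherwise it was placed in the first that applied of 3′ UTR, downstream (500 bases), coding sequence, 5′ UTR, noncoding exon and intron. The distance of single-gene positions to an annotated end was most often 0 (3529 positions, against 1074 for the next). Shares have Wilson 95% intervals and differences Newcombe intervals, both for counting error only. No test across groups was possible. Sets named in the text were the 12 with the highest sums, the 8 with the most positions, those naming the most genes (5), 7 textbook loci, the 8 positions with the most reads at an end of 2 genes and at none, and the 8 genes with the most listed reads named only in shared clusters; other genes named were chosen after their values were seen. Members and lists were chosen with earlier results of these data known. Classes and signals were tested on simulated data (100% of 800 recovered). The simulated sequences held no A outside the planted hexamer, so hexamers that occur by chance were not tested. Python 3.11.15, pandas 2.3.3 and numpy 2.4.6 were used.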

Additional observations from a re-analysis of the deposited data

How the results depend on the processing

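The share of positions that were shared was 7.21% with the rDNA scaffold kept, 7.45% with every entry counted, 5.81% at 100 or more reads and 4.30% with overlapping positions joined (chosen after seeing the data, as was leaving out rRNA genes). Their share of reads was 34.5% with the rDNA scaffold, 17.3% without the most-read shared and single-gene position, 13.1% without rRNA genes and 9.11% with overlaps joined. Within 25 bases, 26.2%, 19.0% and 54.9% of shared positions lay at an end of exactly 1, 2 or more and no gene; within 100 bases, 31.9%, 25.0% and 43.1%. At no end lay 45.0% at 100 or more reads and 52.4% with overlaps joined. Poly(A) signals preceded 45.4% (AATAAA and ATTAAA only), 63.7% (40 bases) and 65.2% (overlaps joined) of shared positions. The difference from single-gene clusters was -20.0 points with only the most-read position per set or gene and -7.60 with overlaps joined. It was negative in all 5 alternatives. Counts of shared clusters and of genes named only there stayed within 1.5 times (1303 to 2338, and 563 to 602). Causes were not tested. Leaving out each replicate was not run, and no paired analysis was possible because the count columns name no library.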
